A study of Rattus norvegicus with 12 samples.

Results

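Cell cycle and DNA replication genes were examined in jejunal mucosa of rats from a high Fe and a low Fe group. The set holds 42 genes: cyclins and their kinases, kinase inhibitors, replication and nucleotide enzymes, mitotic regulators and general proliferation markers. Members were all probe sets of the Affymetrix rat arrays 230A and 230B whose only gene symbol in the platform annotation is 1 of these 42. This gave 55 of 31142 probe sets, 45 on 230A and 10 on 230B, for 40 of 13810 annotated genes. Cdc6 had no such probe set. A 230A probe set lists Hmgb2 beside related copies and another lists Rrm2 beside Rrm2l1, and both were left out, so Hmgb2 has no value and Rrm2 only its 230B probe set. Of the 40 genes, 30 had a probe set above the filter on low signals and were tested, and 10 lay below it.

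Mucosal scrapings of the jejunum, the middle part of the small intestine, were compared between 3 samples labelled high Fe and 3 labelled low Fe, each run on both array types, for 12 arrays. The titles place every sample at 12 weeks, without saying what the weeks count, and iron deficiency with anemia is among the keywords. Strain, sex, age, diet and pooling of animals are not stated. Signals are linear intensities that had been scaled to a common mean within a type, and precision is limited by having 3 arrays a group. Medians of the 230A arrays lay between 154.5 and 176.2, those of the 230B arrays between 259.5 and 302.8. The group labels were checked on genes outside the set: Tfrc, the transferrin receptor, was higher in low Fe by 2.74 ± 0.23 (log2 difference ± SE, limma adjusted p = 0.00217) and Slc11a2, the iron importer, by 2.19 ± 0.15 (limma adjusted p = 0.000892). A scraping holds several cell types, and in such bulk RNA more cells of a type and more RNA per cell cannot be told apart.

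The intestinal lining is renewed continuously: cells divide in the crypts, move up the villi and are shed. Cyclins D with Cdk4 open the way into S phase, E2F factors then switch on replication genes, the Mcm ring is loaded as the helicase, and the clamp Pcna tethers polymerases to DNA. Ribonucleotide reductase, made of Rrm1 and the iron-carrying Rrm2, supplies deoxynucleotides, and cyclin B with Cdk1 and the Aurora and Polo kinases drive mitosis. Iron is needed for the radical of Rrm2 and for iron-sulfur clusters in several replication enzymes.

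Some promoter motifs were more frequent among the members than among all genes, which is not independent of a list named by cell cycle roles. RefSeq promoters of assembly GRCr8, 250 bases before to 50 after the gene start, were found for 34 of the 42. E2F-type motifs on either strand, with overlapping matches counted (letters TTCGCGC, or in other forms TTGGCGC, the further form TTCCCGC and the remaining form TTGCCGC), were in 17 of the 34, or 50%, against 9.52% of 33469 promoters of all genes. CHR elements (TTTGAA, with TTCGAA as the other form), known from genes of late cell cycle, were in 13, or 38.2%, against 19.7%, and the CCAAT box (CCAAT) was in 23, or 67.6%, against 37.5%. For 4 members the 150 bases before the gene start are given, read 5′ to 3′ on the gene's strand, with every full match in capitals. They are the member with the largest difference between the groups (Pcna), the classic proliferation marker (Mki67), a mitotic kinase (Cdk1) and a helicase subunit with nearly equal group means (Mcm5).
Pcna, chr3:139955821-139955970, minus strand: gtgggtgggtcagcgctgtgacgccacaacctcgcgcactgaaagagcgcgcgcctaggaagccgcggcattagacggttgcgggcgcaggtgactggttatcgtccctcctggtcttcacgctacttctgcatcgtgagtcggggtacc
Mki67, chr1:199952594-199952743, minus strand: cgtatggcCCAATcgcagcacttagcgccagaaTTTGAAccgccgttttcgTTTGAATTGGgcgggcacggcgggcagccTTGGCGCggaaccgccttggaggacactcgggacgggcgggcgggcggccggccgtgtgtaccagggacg
Cdk1, chr20:19265143-19265292, plus strand: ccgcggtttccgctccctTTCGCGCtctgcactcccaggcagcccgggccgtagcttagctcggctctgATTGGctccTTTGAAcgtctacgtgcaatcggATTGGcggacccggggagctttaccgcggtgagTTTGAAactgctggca
Mcm5, chr19:13488663-13488812, plus strand: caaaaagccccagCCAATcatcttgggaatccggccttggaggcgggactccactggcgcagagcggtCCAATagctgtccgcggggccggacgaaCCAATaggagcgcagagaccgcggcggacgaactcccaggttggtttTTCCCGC
In the Mki67 stretch an E2F match begins 70 bases before the gene start, CHR matches at 117 and 99, and CCAAT matches at 142 and 94, the last overlapping the second CHR match. Cdk1 had an E2F match at 132, CHR matches at 72 and 16 and CCAAT matches at 81 and 49. Mcm5 had an E2F match at 7 and CCAAT matches at 137, 82 and 54. The Pcna stretch held none of these letter strings, from which nothing follows about any factor.

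No member passed the test of low Fe against high Fe. The test was limma with Benjamini-Hochberg adjustment over all probe sets of an array type and a threshold of adjusted p 0.05. On 230A, 0 of 27 tested members passed, where 0.0851% of all tested genes did (6 of 7051), and 0.0945% of all probe sets (9 of 9519). On 230B, 0 of 4 passed, where 0% of all tested genes did. At an unadjusted p under 0.05 there were 3 of 27 on 230A (Pcna, Prim1 and Mki67, all higher in low Fe), where 6.52% of all genes passed and 3.36% did so as higher. On 230B it was 0 of 4, where 10.5% of all genes passed. Prim1 was tested only through its low Fe signals, as its high Fe mean of 90.4 lies under the filter boundary of 106. By the brightest probe set, Pcna, Prim1 and Mki67 were also the members without overlap and higher in low Fe, which 5.94% of all genes on 230A were. Aurkb was the member without overlap and lower, which 6.04% were. With 3 samples against 3, an exact two-sided permutation test of these 4 genes gives 0.1, the smallest p it allows. A less bright Kif11 probe set on 230B also lay lower without overlap, as did 10.3% of all tested probe sets there. The members' median log2 difference, low Fe minus high Fe, was 0.22 on 230A with 18 above 0 and 9 below, against a median of -0.0018 over all genes, of which 49.6% lay above 0. The 18 above 0 include Prim1 and Top2a, whose high Fe means (90.4 and 103.9) lie under the filter boundary. With the dimmest 60% of probe sets left out, 5 of 9 tested members on 230A lay above 0. Their median was 0.27, against 0.0086 over all genes. On 230B the 4 tested members had a median of 0.30, against 0.0089 over all genes, and all 4 lay above 0, where 50.8% of genes did.

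**Figure D1:**
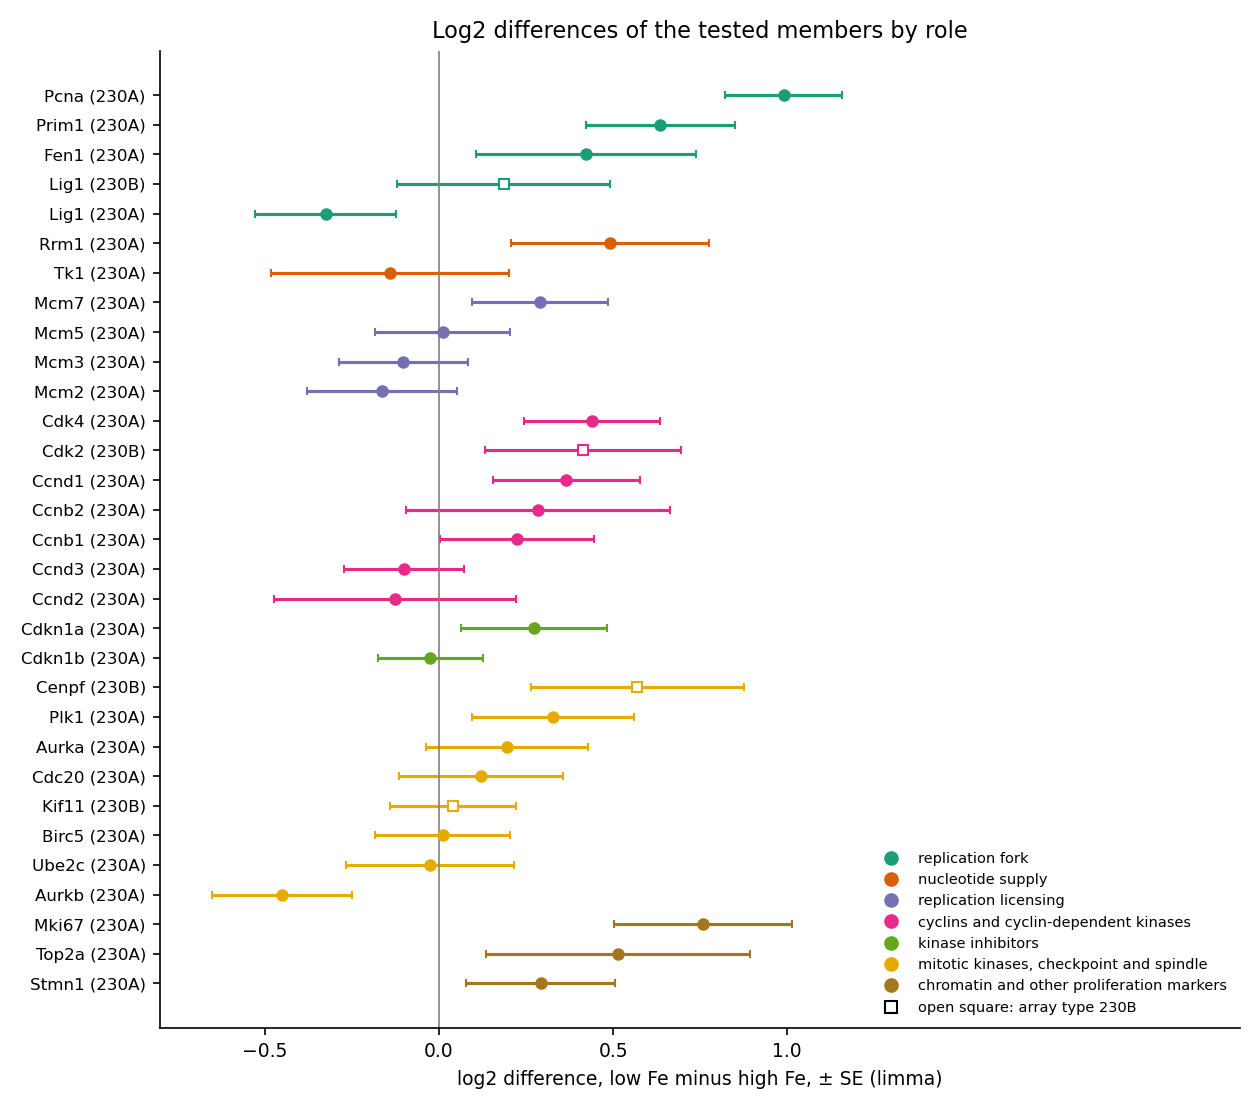
Log2 difference (x axis, low Fe minus high Fe on the log2(signal + 16) scale) with its limma SE for each tested member (y axis), coloured by role, with 3 samples a group. Filled circles are array type 230A and open squares 230B. Pcna at 0.99 lies farthest from 0 and Aurkb at -0.45 is lowest, while the 4 tested Mcm genes lie between -0.16 and 0.29.

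Among proteins of the replication fork, Pcna had the largest difference of all members. Its signal was 1068.2, 1000.0 and 1045.1 in the high Fe samples 1 to 3 and 1916.6, 2686.0 and 1736.8 in the low Fe samples. All 3 low Fe values lay above all high Fe values, and the high Fe samples differed little, with 1038 ± 34.7 against 2113 ± 504 (mean ± SD, n = 3 each). The log2 difference was 0.99 ± 0.17 (SE), or 1.99-fold, with a limma adjusted p of 0.137. With 1 array left out it ran from 0.81 (low Fe sample 2) to 1.12 (low Fe sample 3), and the limma adjusted p ran from 0.0879 to 0.512 over all alternatives run, so Pcna passed under none. Prim1, the catalytic subunit of primase, gave 80.4, 85.9 and 104.9 in high Fe and 114.7, 187.1 and 151.6 in low Fe. Its log2 difference was 0.64 ± 0.21, or 1.55-fold (limma adjusted p = 0.680). The Prim1 groups did not overlap, but its high Fe mean of 90.4 lies under the signal of 106 at which the 230A filter was set. Fen1, the nuclease that trims Okazaki fragments, gave 0.42 ± 0.32, with its lowest signal in high Fe sample 1 (76.5) and its highest in low Fe sample 2 (215.5). Lig1, which seals these fragments, had a log2 difference of -0.32 ± 0.20 on 230A and 0.19 ± 0.31 on 230B, so its probe sets differed in sign. Pola1, a polymerase subunit, was below the filter, with signals from 26.1 to 58.6.

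Nucleotide supply was carried by few measurable genes. Rrm1, the large subunit of ribonucleotide reductase, gave 158.3, 185.7 and 192.1 in high Fe and 153.0, 291.8 and 374.1 in low Fe. Low Fe samples 2 and 3 lay above every high Fe sample and low Fe sample 1 below them. The log2 difference was 0.49 ± 0.28, or 1.4-fold (limma adjusted p = 0.778), and with 1 array left out it ran from 0.23 (low Fe sample 3) to 0.84 (low Fe sample 1). Rrm2, the iron-carrying subunit, was below the filter on 230B, at 23.1, 76.4 and 19.3 in high Fe and 74.1, 92.6 and 16.5 in low Fe. These signals overlapped and were not tested. Tyms, thymidylate synthase, was below the filter too, at 16.3, 23.1 and 3.2 against 6.5, 58.8 and 25.3. Tk1, thymidine kinase, gave -0.14 ± 0.34 in the brighter 230A probe set and 0.11 ± 0.21 in the other.

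The Mcm helicase genes had small differences of both signs. Mcm2 gave 144.0, 151.8 and 178.8 in high Fe and 104.6, 182.2 and 139.6 in low Fe, a log2 difference of -0.16 ± 0.21 or 1.12-fold lower (limma adjusted p = 0.892). Mcm3 gave 138.0, 162.1 and 193.4 against 166.9, 130.6 and 157.0, or -0.10 ± 0.19 and 1.07-fold lower (limma adjusted p = 0.921). In both genes the groups overlapped. Mcm5 gave 134.4, 167.6 and 158.8 against 135.9, 195.0 and 137.8, or 0.01 ± 0.19 and 1.01-fold (limma adjusted p = 0.994). Mcm7 gave 167.6, 147.3 and 170.7 against 163.8, 259.7 and 191.0, or 0.29 ± 0.20 and 1.22-fold (limma adjusted p = 0.801). In Mcm5 and Mcm7 low Fe sample 2 was the highest array, and the other low Fe arrays of Mcm5 lay within the high Fe range. Mcm4 and Mcm6 were below the filter, from 47.0 to 65.1 and from 54.8 to 86.2 in high Fe, and from 60.8 to 100.2 and from 39.4 to 192.1 in low Fe. With SEs of 0.19 to 0.21, differences of the size seen here were not detectable with these arrays. The difference between Pcna and the Mcm genes was not tested.

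**Figure D2:**
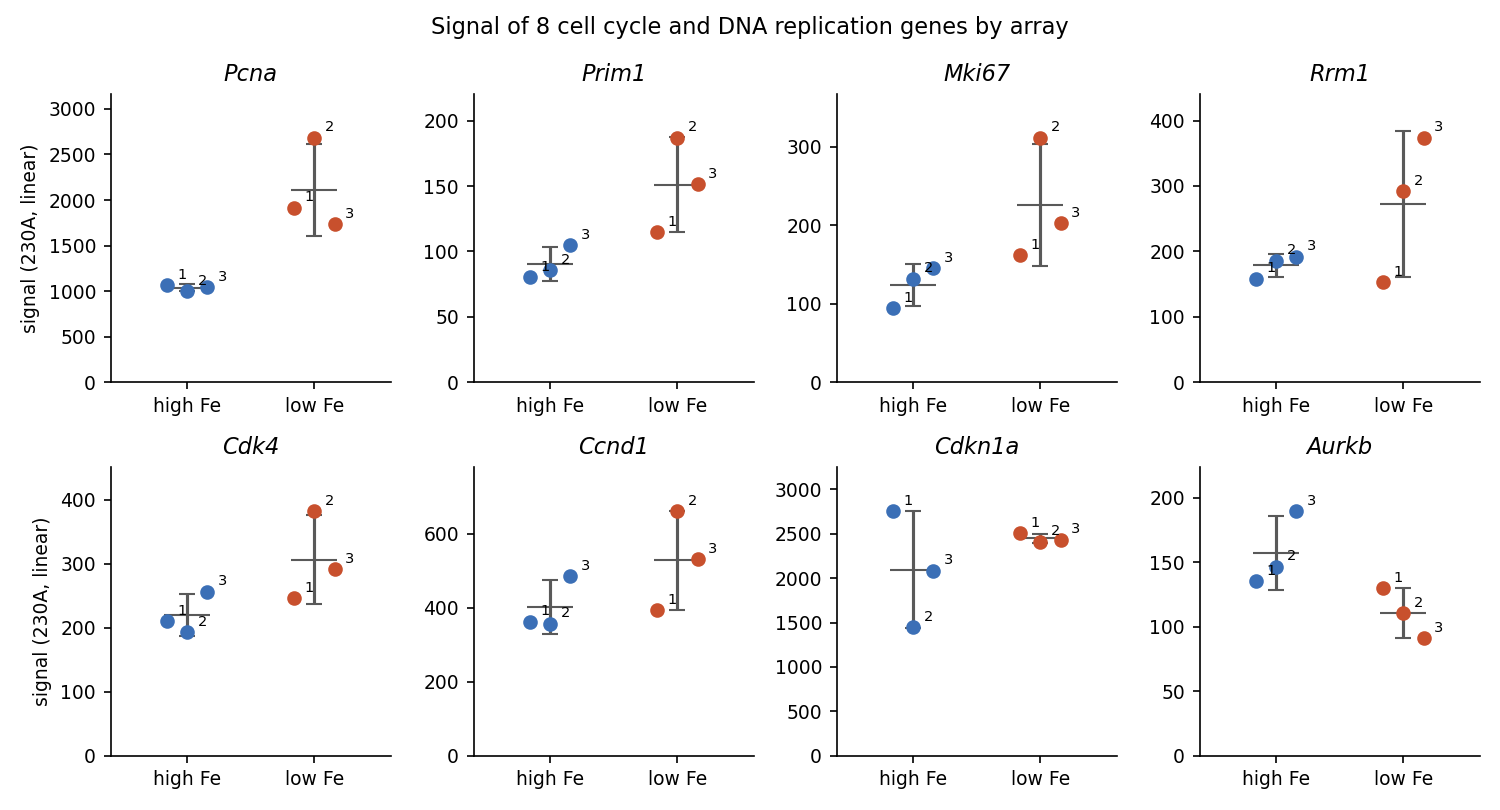
Signal (y axis, linear, from 0) of 8 members on 230A in the 3 high Fe and 3 low Fe samples, each point numbered by sample and bars for mean ± SD. Pcna, Prim1 and Mki67 are higher and Aurkb lower in every low Fe sample, while the groups of Rrm1, Cdk4, Ccnd1 and Cdkn1a overlap.

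Of the cyclins and cyclin-dependent kinases, 6 were tested on 230A, with log2 differences from -0.13 to 0.44, and Cdk2 on 230B. Cdk4, the kinase of early G1, gave 210.4, 192.7 and 256.7 in high Fe and 246.4, 382.7 and 291.3 in low Fe, a log2 difference of 0.44 ± 0.20 or 1.36-fold (limma adjusted p = 0.747). Its groups overlapped through high Fe sample 3 and low Fe sample 1. Ccnd1, its cyclin D1 partner, gave 362.2, 356.7 and 485.5 against 392.4, 661.2 and 530.3, or 0.37 ± 0.21 and 1.29-fold (limma adjusted p = 0.778), and a less bright probe set also gave 0.37. The other D cyclins lay below 0, with -0.13 ± 0.35 for Ccnd2 and -0.10 ± 0.17 for Ccnd3, and both turned above 0 after scaling to the hybridization controls (0.24 and 0.26), where the median over all genes was 0.36. Cdk2, the kinase of S phase, gave 0.41 ± 0.28 on 230B. The mitotic cyclins Ccnb1 and Ccnb2 gave 0.22 ± 0.22 and 0.28 ± 0.38, and Ccnb2 gave -0.11 without low Fe replicate 2. Cdk1, the mitotic kinase, was below the filter, at 54.3, 91.8 and 97.7 in high Fe and 45.5, 178.4 and 124.8 in low Fe. Low Fe samples held both its lowest and its highest signal. Ccna2 and Ccne1, the cyclins of S phase and of the G1/S step, were below the filter too.

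The kinase inhibitors were measured at high signals. Cdkn1a, the p21 inhibitor and a target of p53, gave 2757.1, 1445.2 and 2086.7 in high Fe and 2506.5, 2412.3 and 2434.8 in low Fe. Low Fe samples were nearly equal, within the wide high Fe range, and the log2 difference was 0.27 ± 0.21 or 1.21-fold (limma adjusted p = 0.823). Its second probe set gave -0.52 ± 0.57, and the mean of both -0.12, so no direction can be given. Cdkn1b, the p27 inhibitor that holds cells in G1, gave 977.5, 1215.1 and 960.0 against 1178.2, 943.6 and 973.8, a log2 difference of -0.02 ± 0.15.

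Mitotic regulators were spread on both sides of 0, from -0.45 to 0.33 for the 6 tested on 230A. Aurkb, the kinase that corrects chromosome attachment, had signals of 135.1, 146.5 and 189.6 in high Fe and 130.0, 110.5 and 91.0 in low Fe. Each low Fe value lay below each high Fe value, with a gap of a few signal units between low Fe sample 1 and high Fe sample 1. The log2 difference was -0.45 ± 0.20, or 1.37-fold lower (limma adjusted p = 0.747), and its low Fe mean of 110.5 was close to the filter boundary of 106. Its partner in the same complex, Birc5 (survivin), gave 0.01 ± 0.19. The Polo kinase Plk1 and the spindle kinase Aurka gave 0.33 ± 0.23 and 0.20 ± 0.23. Cdc20 and Ube2c, which help the anaphase-promoting complex mark cyclins for destruction, gave 0.12 ± 0.24 and -0.03 ± 0.24. On 230B, Cenpf, a kinetochore protein, gave 385.0, 322.9 and 480.1 in high Fe and 414.6, 934.4 and 522.3 in low Fe, or 0.57 ± 0.31, and 0.24 without low Fe replicate 2. Kif11, the spindle motor, gave 0.04 ± 0.18, and -0.30 ± 0.17 in a less bright probe set. That probe set gave 515.5, 555.1 and 535.9 in high Fe and 473.4, 421.3 and 403.6 in low Fe, without overlap. The checkpoint kinases Bub1 and Bub1b were below the filter.

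General proliferation markers lay above 0. Mki67, the Ki-67 antigen of cycling cells, gave 94.1, 131.7 and 144.9 in high Fe and 161.4, 311.5 and 202.3 in low Fe, without overlap. Its log2 difference was 0.76 ± 0.26, or 1.69-fold (limma adjusted p = 0.680), and 0.51 without low Fe replicate 2. Top2a, the topoisomerase that untangles replicated DNA, gave 70.8, 97.0 and 143.8 against 76.0, 241.4 and 177.1, or 0.51 ± 0.38 and 1.43-fold (limma adjusted p = 0.818). Its high Fe mean of 103.9, as for Prim1, lies under the filter boundary, so it was tested only through its low Fe signals. Low Fe sample 1 lay beside the lowest high Fe sample, and without low Fe replicate 2 the difference was 0.20. Stmn1, a microtubule regulator of dividing cells, gave 0.29 ± 0.21.

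Many members were highest or lowest in the same samples. Of the 27 tested on 230A, 14 had their highest signal in low Fe sample 2, where 19.7% of all tested genes did, and 0 had it in low Fe sample 1, where 13% of all tested genes did. High Fe sample 1 held the lowest signal of 14 of the 27, where 14.6% of all tested genes had theirs. Of the 7 below the filter on 230A, all were highest in low Fe sample 2. On 230B this held for 3 of 4 tested members, where it held for 14.8% of all tested genes, and for 3 of 4 members below the filter. These shares are of genes above the filter, and none was computed for all genes below it. Relative to each gene's mean, the median member was at -0.31, 0.02 and 0.10 in high Fe samples 1 to 3 and at -0.11, 0.33 and 0.08 in low Fe samples 1 to 3. Low Fe sample 1 lay below high Fe samples 2 and 3. Over all pairs of the 27 tested members the median Pearson correlation across the 6 arrays was 0.37, against 0.0029 over all tested genes, a description in which the arrays are shared by every pair. Leaving out high Fe replicate 1 took the median log2 difference from 0.22 to 0.03. It was 0.09 when low Fe replicate 2 was left out and 0.33 when low Fe replicate 1 was.

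**Figure D3:**
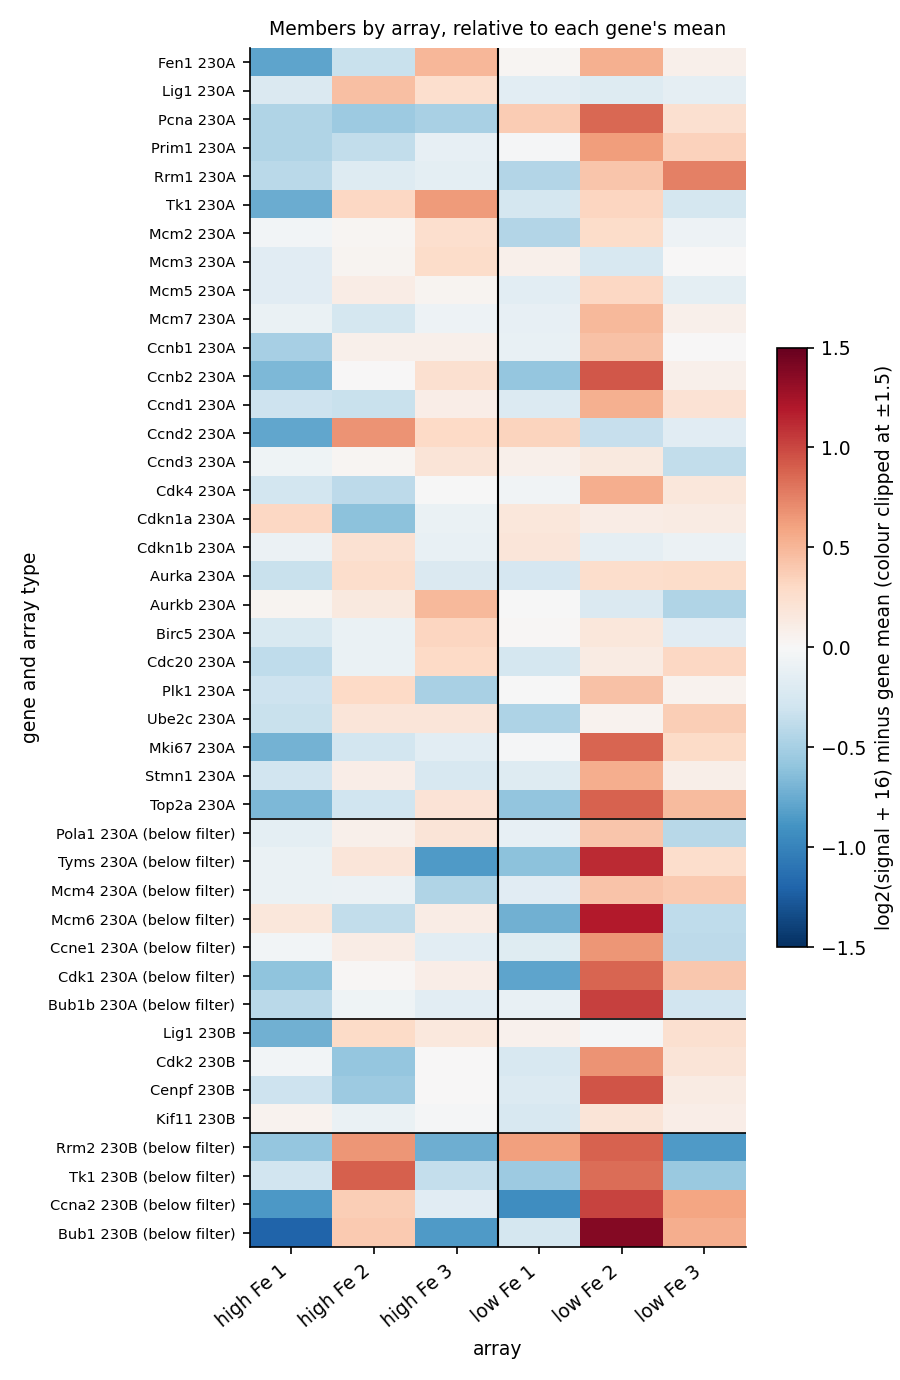
Each row is a member on an array type, each column an array, and colour is log2(signal + 16) minus the gene's mean over the 6 arrays, for the brightest probe set. The column of low Fe 2 is the reddest and that of high Fe 1 mostly blue, and Pcna is blue in all 3 high Fe and red in all 3 low Fe columns.

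Signs of RNA quality and markers of other cells differed between these samples. High Fe sample 1 and low Fe samples 2 and 3 had lower 5′/3′ ratios of the GAPDH control probe sets on 230A (0.794 to 0.811) than the other samples (0.876 to 0.922), and the beta-actin ratio of low Fe sample 3 was 0.0539 against 0.591 to 0.836. With these GAPDH sets, split at the widest gap, as a block on 230A, the members' median was 0.18 and Pcna gave 0.95 ± 0.18. The lower set holds more low Fe than high Fe arrays, so this block is partly tied to the groups. On 230B low Fe sample 3 fell in the higher GAPDH set (0.873), though its beta-actin ratio was 0.0473. Of 15 crypt stem and progenitor markers, 7 were tested, all with log2 differences above 0. Of all tested genes, 49.6% on 230A and 50.8% on 230B lay above 0. The summed signal of the 4 on 230A ran from 813 to 1223 in high Fe and from 1047 to 2492 in low Fe, and that of the 3 on 230B from 1066 to 1617 and from 1168 to 2853, with the highest value of each type in low Fe sample 2. In that sample 1 gene made up much of each sum, Slc12a2 with 1440.3 on 230A and Smoc2 with 1558.7 on 230B. The median crypt marker relative to gene means was also highest there, at 0.65 and 0.47. None of the 7 crypt markers passed the test. Lgr5 and Ascl2, which define crypt stem cells, were below the filter. Villus enterocyte markers, 13 of 17 tested on 230A, summed to 110370 to 175950 in high Fe and 113150 to 140840 in low Fe. Of the 13, 12 lay below 0 by -0.68 to -0.06 and 1 above, where 49.6% of all tested genes lay above 0. High Fe sample 1 had the lowest sum of the 6 arrays and high Fe sample 2 the highest. Relative to each gene's mean, the median villus marker was at -0.24, 0.40 and 0.05 in high Fe samples 1 to 3. In low Fe samples 1 to 3 it was at 0.09, -0.09 and -0.21. The 9 lymphocyte markers on 230A had a median of -0.04 and overlapping sums (8797 to 9517 in high Fe, 9233 to 10574 in low Fe). Among them Cd8a (-0.66 ± 0.19) and Cd4 (-0.37 ± 0.18), which mark T cell classes, lay lower in every low Fe sample. The low Fe mean of Cd8a (110.2) was close to the filter boundary of 106. Gzmb, a cytotoxic granule protease, gave 0.47 ± 0.21. The remaining lymphocyte markers on 230A lay between -0.16 (Cd3e) and 0.18 (Lck), with Cd3d at -0.04 and Cd3g at 0.01. The 4 lymphocyte markers on 230B had a median of -0.01. There Cd8a gave -0.81 ± 0.43 with groups that overlapped, and Cd3e gave 0.17 ± 0.21. Paneth and goblet markers had a median of -0.06 over 6 genes on 230A, 1 of them above 0, and of 0.16 over 3 genes on 230B, all above 0. Their 230B median over genes was highest in low Fe sample 2, and the goblet gene Clca1 gave -0.04 ± 0.12 on 230A and 0.48 ± 0.19 on 230B. Smooth muscle markers, 5 of 8 tested on 230A, summed to 3329 to 4021 in high Fe and 4343 to 5636 in low Fe, without overlap. The 2 on 230B summed to 538 to 1080 in high Fe and 626.9 to 1125 in low Fe, which overlap, and Mylk, the brightest on 230A at 0.43 ± 0.13, gave 0.09 ± 0.42 there. The part of crypt content, muscle or RNA quality in the members' values was not tested.

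**Figure D4:**
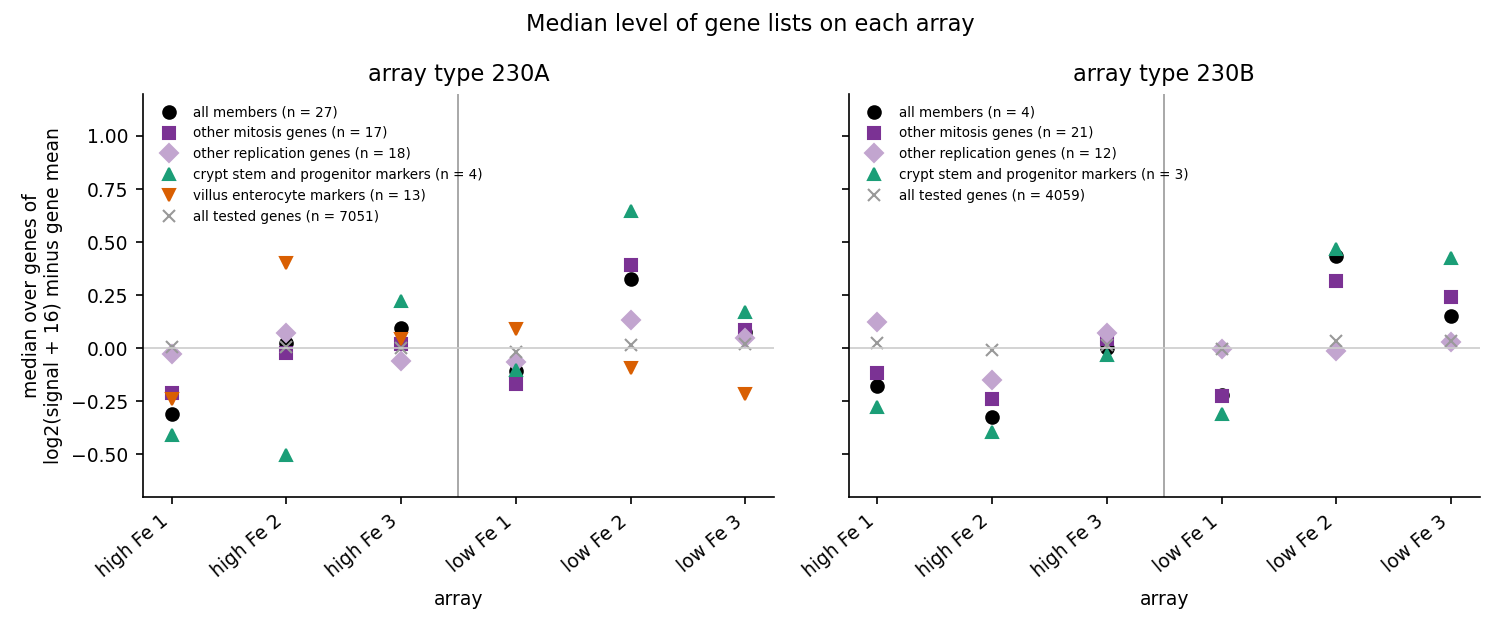
Median over the genes of each list (y axis, log2(signal + 16) minus the gene mean) on each array (x axis), for 230A and 230B. The members, the other mitosis genes and the crypt markers are all highest in low Fe 2 on both types, while the median of all tested genes stays near 0. The other replication genes are highest in low Fe 2 on 230A (0.13). On 230B they are highest in high Fe 1 (0.12) and lie at -0.01 in low Fe 2.

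Other lists of the pathway, which leave the members out except for a list of iron-dependent proteins, gave no gene past the adjusted threshold on either type. Of the G1/S regulators, 9 were tested on 230A and 7 on 230B, with medians of -0.05 and 0.20. E2f4, a repressing E2F factor, gave 0.20 ± 0.14, Tfdp1, the partner of E2F factors, 0.28 ± 0.22, Lin54, of the complex that binds CHR elements, 0.65 ± 0.27 (limma adjusted p = 0.478) and E2f1, an activating E2F factor, 0.22 ± 0.19. Other replication genes, 18 and 12 tested, had medians of 0.05 and 0.06. Gmnn, geminin, the inhibitor of repeated licensing, spread from 144.9 to 848.1 in high Fe and from 683.1 to 1197.4 in low Fe, or 1.15 ± 0.53 on 230B. Its lowest high Fe signal lies under the 230B filter boundary of 182.9. The Gmnn difference was 0.49 without high Fe replicate 1, and its limma adjusted p was at least 0.427 under all alternatives run. The helicase subunit Cdc45 gave -0.25 ± 0.16. The single-strand binding subunit Rpa1 and the polymerase subunit Pola2 gave 0.38 ± 0.21 and 0.44 ± 0.27, and Rpa1 was above the filter boundary in low Fe alone (means of 102 and 135.9). On 230A 13 of the 18 other replication genes lay above 0.

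Mitosis genes outside the set, 17 tested on 230A and 21 on 230B, had medians of 0.16 and 0.24, with 12 and 17 of them above 0. Prc1, which bundles microtubules of the central spindle, gave 1876.8, 1970.6 and 1557.8 in high Fe and 2509.0, 2746.6 and 3038.8 in low Fe on 230B. Its groups did not overlap, as for 9.24% of all genes on 230B that were higher in low Fe, and the log2 difference was 0.62 ± 0.17, or 1.53-fold (limma adjusted p = 0.454). Tacc3, a spindle protein, went the other way, with 592.7, 982.6 and 866.1 against 485.6, 559.0 and 514.7, or -0.60 ± 0.22 (limma adjusted p = 0.456). On 230A the smallest unadjusted p belonged to Pttg1, securin, with 0.96 ± 0.48, and Cdca3, a mitotic entry factor, with 0.41 ± 0.24. Pttg1 gave 46.7, 75.2 and 238.2 in high Fe and 139.5, 313.1 and 191.6 in low Fe. Its high Fe samples 1 and 2 lay under the filter boundary of 106. With 1 array left out its difference ran from 0.53 to 1.54.

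Further kinase inhibitors had 5 genes tested on 230A and 2 on 230B. Cdkn1c, the p57 inhibitor, gave 1400.7, 1638.6 and 1319.4 in high Fe and 877.4, 333.5 and 1017.8 in low Fe. All low Fe samples were below all high Fe samples, with the lowest value in low Fe sample 2. The log2 difference was -1.09 ± 0.35, or 2.13-fold lower (limma adjusted p = 0.653), and -0.61 without low Fe replicate 2. Btg3, an antiproliferative factor, gave 0.51 ± 0.29 and was above the boundary in low Fe alone (means of 100.4 and 142.7). Cdkn2c, an inhibitor of Cdk4, gave -0.57 ± 0.20 on 230B (limma adjusted p = 0.456) but 0.31 ± 0.20 on 230A. Cdkn2d gave 0.15 ± 0.22.

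Among other nucleotide supply genes, 7 and 4 tested with medians of 0.12 and 0.02, Shmt2, the mitochondrial enzyme that feeds one-carbon units, gave 458.3, 398.1 and 384.8 in high Fe and 473.1, 659.1 and 595.6 in low Fe, or 0.45 ± 0.16 (limma adjusted p = 0.688). Nme1, a nucleoside diphosphate kinase, gave 0.39 ± 0.26, Dck, deoxycytidine kinase, -0.63 ± 0.43 and Dctd, deoxycytidylate deaminase, 0.22 ± 0.16. A list of iron-dependent proteins, mostly of DNA synthesis and repair but also of transfer RNA modification (Cdkal1, Elp3) and iron-sulfur cluster assembly (Ciao1), and including the member Rrm1, had 10 genes tested on 230A, 4 above 0 and 6 below, and 3 on 230B, with medians of -0.06 and -0.26. Cdkal1, an iron-sulfur enzyme of transfer RNA modification, gave 257.7, 305.9 and 273.1 in high Fe and 198.2, 162.7 and 223.3 in low Fe, or -0.49 ± 0.17 (limma adjusted p = 0.680). Ercc2, an iron-sulfur helicase of repair, gave -0.28 ± 0.15, and on 230B the helicase Ddx11 gave 0.45 ± 0.25 and the nuclease Dna2 -0.49 ± 0.36, with a low Fe mean (180.5) under the boundary of 182.9. Checkpoint genes and p53 targets had medians of 0.08 (8 genes on 230A) and -0.22 (5 on 230B). In that list Ndrg1, a stress gene known to respond to iron chelation, gave 0.24 ± 0.11 on 230A and -0.61 ± 0.57 on 230B, H2ax, the damage-marking histone, 0.22 ± 0.18, and Bbc3, a death gene under p53, -0.22 ± 0.16.

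The genes whose pattern over the 6 arrays on 230A was most like that of Pcna were Cdk8, Dcaf17, Ppp2r2a, Dnajc5 and Slc2a1, with Pearson correlations from 0.974 to 0.991. Those most like Mki67 were Col5a2, Cxcl14, Prim1, Thumpd1 and Ly86, from 0.967 to 0.982. Prim1 was the only member among these 10. Each list was taken as the 5 highest of 7051 tested genes over 6 arrays, so high values follow in part from that choice. The profiles of Prim1 and Pcna correlated at 0.898, those of Mki67 and Pcna at 0.875. All of these members were higher in low Fe without overlap, so their correlations are no separate result. Other member pairs reached similar values, such as Cdk4 with Ccnd1 (0.968) and Cdk4 with Prim1 (0.962).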

How the data were processed

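The authors deposited 1 linear intensity per probe set for each of 12 arrays, made with software not given in the sources used here. Trimmed means were 500.1 for all arrays of type 230A and 500.2 for all of type 230B, which shows a scaling under which a shift common to most genes disappears. Samples were grouped by title. Separate animals are not named, so p-values cover the spread of these samples alone, which may be technical.

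From the deposited intensities, log2(signal + 16) was computed, and within a type the dimmest 40% of probe sets by its mean were dropped (boundary signal 106 on 230A, 182.9 on 230B), leaving 9519 and 9165. The platform annotation gave 1 symbol for 12783 and 7564 probe sets, several for 312 and 100, and none for 2771 and 7612, beside 57 controls a type. Low Fe minus high Fe was tested with limma 3.58.1 (R 4.3.3; lmFit, eBayes with a trend), each type alone, with Benjamini-Hochberg adjustment. A gene is read from its brightest tested probe set. Folds understate changes of dim genes. The fit was run on simulated data with independent errors and no deviations shared between genes. Such data differ from these arrays, so that run does not show how the fit performs here.

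The members and lists were chosen with earlier results of these data known. Described in full were Pcna, Mki67, Rrm1, Rrm2, Tyms, Cdk4, Ccnd1, Cdkn1a, Top2a, Aurkb, the tested Mcm genes and members with an unadjusted p under 0.05. From each further list came the 2 genes of smallest p on each type, and from the correlations the 5 genes most like Pcna and Mki67. Cdkn2c on 230A and the markers Cd8a, Cd4, Cd3d, Cd3e, Cd3g, Lck, Gzmb, Clca1 and Mylk were added after their values were seen. Alternatives were pseudocounts of 1 and 64, no filter or the dimmest 60% dropped, a common median, quantile normalization, hybridization controls, eBayes without trend or robust, blocks by replicate number or RNA quality, each array left out, the mean of a gene's probe sets and a threshold of 0.1.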

Additional observations from a re-analysis of the deposited data

How the results depend on the processing

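Members past the threshold stayed at 0 on both array types under all alternatives run, including a threshold of 0.1 in the main fit. That threshold was not combined with other alternatives. Pcna had a limma adjusted p of 0.0879 with a gene's probe sets averaged. The count over all probe sets on 230A was 9. It became 32 after scaling to the hybridization controls, 14 with RNA quality sets as a block, 15 at a threshold of 0.1, and 5 (without low Fe replicate 2) to 21 (without low Fe replicate 1) when 1 array was left out. On 230B it went from 0 to 4 after scaling to the hybridization controls. That scaling moved the median of all tested genes on 230A from -0.0018 to 0.36 and that of the members to 0.57, a distance of 0.22. With 1 array left out, the members' median was 0.03 to 0.33 on 230A and 0.21 to 0.42 on 230B. Same-numbered arrays deviated in opposite directions (correlations of -0.356, -0.149 and -0.252 on 230A, and -0.265, -0.0993 and -0.166 on 230B), so the numbers were not taken as pairs. The replicate block gave 4 probe sets on 230A and changed no call of a member. The causes were not tested.

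Of 59 gene values, 41 kept their sign under all alternatives run, and 43 when scaling to the hybridization controls, which shifts most genes upward, is left aside. The eBayes settings and the replicate block leave a log2 difference unchanged, as does the RNA quality block on 230B. Those alternatives could not turn a sign. Lig1 on 230A and Ercc2 turned under that scaling alone. After scaling to the hybridization controls, Ccnd2 gave 0.24, Ccnd3 0.26, Cdkn1b 0.34, Mcm2 0.17, Mcm3 0.23, Tk1 0.21, Lig1 0.016, Ube2c 0.33 and Ercc2 0.071. With a common median, Cdkn1b and Ube2c gave 0.038 each. With RNA quality sets as a block, Ccnd2 gave 0.18, Cdkn1b 0.048 and Tk1 0.014. With a gene's probe sets averaged, Cdkn1a gave -0.12, Kif11 -0.13 and Cdkn2d -0.089. With 1 array left out, values ran from -0.11 to 0.64 for Ccnb2, -0.55 to 0.18 for Ccnd2, -0.20 to 0.062 for Ccnd3, -0.12 to 0.083 for Cdkn1b, -0.34 to 0.017 for Mcm2, -0.21 to 0.010 for Mcm3, -0.14 to 0.092 for Mcm5, -0.10 to 0.17 for Birc5, -0.041 to 0.30 for Cdc20, -0.55 to 0.15 for Tk1 and -0.22 to 0.20 for Ube2c. On 230B they ran from -0.13 to 0.38 for Lig1, -0.049 to 0.17 for Kif11, -1.17 to 0.10 for Ndrg1 and -0.0040 to 0.33 for Cdkn2d.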
